A study of Homo sapiens with 9 samples.

Results

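Expression of 7 genes of the RAS-RAF-MEK-ERK cascade was followed across 3 untreated subclones of SK-MEL-5, a human melanoma line with a mutated BRAF gene. The genes are NRAS and HRAS, ARAF and BRAF, MAP2K1 and MAP2K2, and MAPK3, found by the Ensembl IDs of their symbols, 7 of the 60675 genes in the count table. All 7 passed the filter on low counts, which left 18009 genes. The remaining RAS, RAF and ERK genes of the cascade are not analysed here. The groups are the clones SC01, SC07 and SC10, each grown from 1 cell by limiting dilution without drug, with 3 RNA-seq libraries per clone. The labels say that the choice of clones rested on their first response to PLX-4720, a BRAF inhibitor, without giving the response of any clone. All 9 libraries are from untreated cells of the same BRAF-mutated line. Whether the libraries of a clone come from separate cultures is not given, so the spread behind the p-values may be only technical. Each group stands for 1 clone, and clone and any unrecorded batch cannot be told apart. In such bulk samples a smaller share of cells with a transcript and less of it per cell cannot be told apart either.

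RAS proteins are membrane-bound GTPases that recruit RAF kinases when loaded with GTP. RAF kinases phosphorylate the MEK kinases, encoded by MAP2K1 and MAP2K2, and these in turn phosphorylate the ERK kinases, of which MAPK3 encodes ERK1. In many melanomas a mutated BRAF kinase drives MEK without RAS, and RAF inhibitors are aimed at that kinase. The cascade is controlled largely by phosphorylation and complex formation, which mRNA counts do not measure, and the counts do not separate the mutated from the other BRAF allele.

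Libraries held 30224066 to 39454087 counts, so that each of these 7 genes had between 911 and 8521 counts in every library. SC10 replicate 3 stood apart from the other SC10 libraries, at a chi-square over its degrees of freedom of 10.5 and 11.6, against 2.56 between those. Of 8 melanocyte lineage markers 7 were tested, with summed levels of 10870 to 11530 CPM (counts scaled to library size, with TMM factors) in SC01, 24450 to 24960 in SC07 and 15280 to 15490 in SC10. PMEL stood at 3753, 12140 and 6827 CPM and DCT at 3480, 8828 and 4820 in that order. TYRP1 (2394, 1212 and 702 CPM) and S100B (150.4, 104.5 and 133.1 CPM) were lower than in SC01 in both other clones. The other 5 were higher in both, where 31.5% and 33.5% of all genes were higher. SOX10 had 0 counts in every library, and whether this comes from the cells or from the counting was not tested. Among markers of other cell types, LUM made up nearly all of the summed fibroblast level (131.5 to 136.7, 427.6 to 489.4 and 334.7 to 370.6 CPM in the same order), with COL1A2, COL3A1 and THY1 below 0.1 CPM in each clone. Of the other fibroblast markers, DCN was higher in SC07 (2.70 CPM) and SC10 (0.943) than in SC01 (0.463), COL1A1 was lower in both (2.04 CPM in SC01, 1.20 and 1.15), and PDGFRB was at 0.259 to 0.510 CPM. Of 6 keratinocyte markers KRT10 was at 22.6, 20.9 and 24.8 CPM and KRT14 at 0.220, 1.23 and 0.0197 CPM (higher in SC07 and lower in SC10 than in SC01), KRT1 had 0 counts, and KRT5, TP63 and DSG3 were below 0.1 CPM in each clone. Of the immune markers PTPRC was at 0.173, 3.12 and 0.735 CPM, LYZ at 0.137 to 0.245 CPM and CD68 at 0.0821 to 0.160 CPM over the clones, and CD3E and CD14 were below 0.1 CPM in each clone. Mitochondrial rRNA took 0.521% to 0.551% of counts in SC01, 0.976% to 1.03% in SC07 and 1.03% to 1.09% in SC10, and mitochondrial mRNA took 6.35% to 6.46%, 8.52% to 8.97% and 9.42% to 9.89%. The part of these library differences in the results below was not tested.

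Every one of the 7 genes passed the edgeR quasi-likelihood test for any difference among clones (adjusted p under 0.05), as did 76.3% of all genes tested, so the count by itself is no result about the cascade. The direction was not shared along the pathway. Both RAF genes and MAP2K1 were higher in SC07 and SC10 than in SC01, and MAP2K2 was lower in both. NRAS was lower in SC10, HRAS was lower in SC07, and MAPK3 was higher in SC10. Every difference was below 2-fold, whereas 3358 of 18009 genes reached 2-fold between SC07 and SC01, 3631 between SC10 and SC01 and 1765 between SC10 and SC07.

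**Figure D1:**
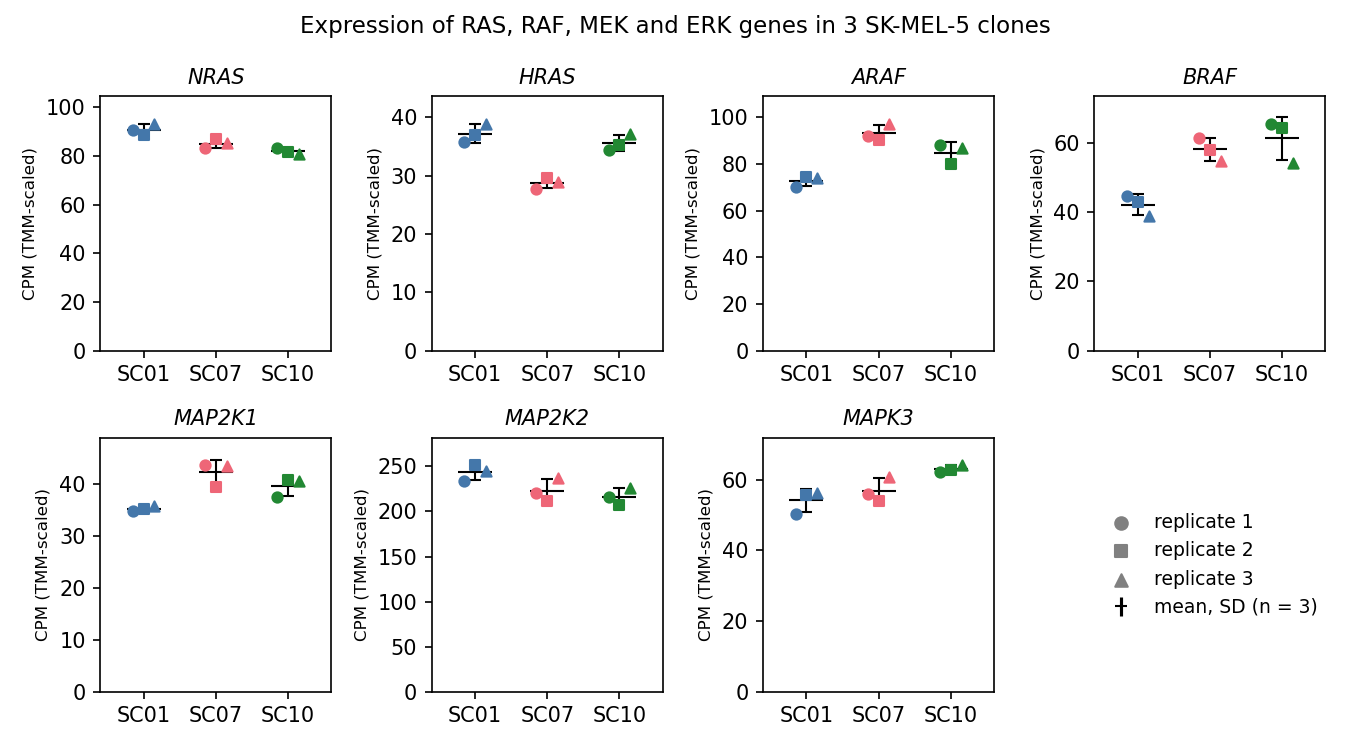
TMM-scaled CPM (vertical axes, from 0) of the 7 genes in each of the 9 libraries, by clone. Bars give the mean and SD of 3 libraries, and the marker shape gives the replicate number. The SC07 libraries of HRAS (27.7 to 29.6 CPM) lie below all others, and the SC01 libraries of ARAF and BRAF lie below those of both other clones.

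NRAS (ENSG00000213281, GRCh38 chromosome 1, 114704469 to 114716894, minus strand) encodes the RAS protein most often mutated in melanomas that lack a BRAF mutation. It measured 90.6, 88.7 and 93.2 CPM in the SC01 libraries, 83.2, 86.8 and 85.1 in SC07, and 83.2, 81.7 and 80.7 in SC10. Every SC01 library lay above every library of the other clones, by a small margin. The log2 change against SC01 was -0.15 ± 0.045 (SE) in SC10 (adjusted p = 0.00468, edgeR) and -0.095 ± 0.045 in SC07, where it did not pass (adjusted p = 0.0676). The SC07 value passed under upper quartile scaling (adjusted p = 0.0207), with total counts as the only scaling (-0.20, adjusted p = 0.000265), with a filter of 1 CPM (adjusted p = 0.0237), with each pair fitted alone (adjusted p = 0.026), and without SC10 replicate 3 (adjusted p = 0.023). SC10 and SC07 overlapped, at -0.055 ± 0.045 (adjusted p = 0.335).

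HRAS (ENSG00000174775, chromosome 11, 532242 to 537287, minus strand), a second RAS GTPase with a closely similar catalytic domain, set SC07 apart. Its libraries stood at 35.8, 37.0 and 38.9 CPM in SC01, at 27.7, 29.6 and 28.9 in SC07, and at 34.5, 35.3 and 37.1 in SC10. The SC07 libraries did not overlap those of either clone, while SC01 and SC10 overlapped. HRAS was lower in SC07 than in SC01 by a log2 change of -0.37 ± 0.058 (adjusted p = 2.5e-06, edgeR) and fell by 22.7% on the linear scale. It was higher in SC10 than in SC07 by 0.31 ± 0.058 (adjusted p = 6.31e-05). Between SC10 and SC01 the change was -0.064 ± 0.057 (adjusted p = 0.331), or -0.18 with total counts as the only scaling (adjusted p = 0.0079).

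ARAF (ENSG00000078061, chromosome X, 47561100 to 47571920, plus strand), a RAF kinase with low intrinsic activity, was lowest in SC01. Its levels were 70.0, 74.3 and 74.0 CPM in SC01, 91.8, 90.3 and 97.3 in SC07, and 88.0, 79.8 and 86.9 in SC10. The libraries of each clone were clear of those of the others. The log2 change against SC01 was 0.36 ± 0.050 in SC07 (adjusted p = 5.03e-07, edgeR) and 0.22 ± 0.050 in SC10 (adjusted p = 0.000306). The lower level in SC10 than in SC07, -0.13 ± 0.049 (adjusted p = 0.0273), did not pass without SC07 replicate 1 or 3 or SC10 replicate 2 (adjusted p = 0.0566, 0.137 and 0.198).

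BRAF (ENSG00000157764, chromosome 7, 140719327 to 140924928, minus strand), the kinase that PLX-4720 targets, showed the largest change of the 7 under TMM scaling (with total counts as the only scaling HRAS in SC07 against SC01, at -0.48, exceeded the 0.43 of BRAF in SC10). Its libraries measured 44.7, 43.0 and 38.8 CPM in SC01, 61.5, 58.1 and 54.9 in SC07, and 65.6, 64.4 and 54.2 in SC10. Both clones were above SC01 without overlap, 1.38-fold in SC07 and 1.46-fold in SC10, and they overlapped each other. As log2 changes these are 0.46 ± 0.069 (adjusted p = 6.58e-06, edgeR) and 0.54 ± 0.069 (adjusted p = 7.05e-07). SC10 replicate 3, the library that stood apart, had the lowest BRAF value of its clone. With it, SC10 against SC07 gave 0.079 ± 0.068 (adjusted p = 0.364), and without it 0.17 (adjusted p = 0.00882). Leaving out any other single library gave adjusted p from 0.213 to 0.733 (edgeR) for this change. Of the exon bases of BRAF, 5.29% are shared with NDUFB2, a complex I gene on the opposite strand, with 98.6 CPM for SC01, 116 for SC07 and 87.7 for SC10. Whether counting used strand is not given. NDUFB2 was higher in SC07 than in SC01 by 0.23 (adjusted p = 0.00012, edgeR), the direction of BRAF, and in SC10 against SC01 it changed by -0.17 (adjusted p = 0.00315), and the part of shared reads was not tested.

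MAP2K1 (ENSG00000169032, chromosome 15, 66386817 to 66492312, plus strand) encodes MEK1. Its levels were 34.8, 35.1 and 35.7 CPM in SC01, 43.6, 39.5 and 43.5 in SC07, and 37.4, 40.6 and 40.4 in SC10. SC01 lay below both other clones, and those overlapped. MAP2K1 gained 0.26 ± 0.057 on the log2 scale in SC07 (adjusted p = 0.000254, edgeR) and 0.16 ± 0.057 in SC10 (adjusted p = 0.0132). With total counts as the only scaling the SC10 value was 0.052 and did not pass (adjusted p = 0.418). The exons of MAP2K1 share 11.5% of their bases with genes on the opposite strand, mainly SNAPC5, which moved the other way (-0.19 in SC07 and -0.30 in SC10 against SC01). The processed pseudogene MAP2K1P1 held 3 to 24 counts per library.

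MAP2K2 (ENSG00000126934, chromosome 19, 4090321 to 4124129, minus strand), which encodes MEK2, was the most abundant of the 7 in counts and moved against MAP2K1. It stood at 234.1, 251.4 and 244.2 CPM in SC01, 220.3, 211.0 and 237.5 in SC07, and 215.7, 207.1 and 225.7 in SC10. SC10 lay below SC01 without overlap, while SC07 overlapped both. The log2 change against SC01 was -0.17 ± 0.048 in SC10 (adjusted p = 0.00264, edgeR) and -0.13 ± 0.048 in SC07 (adjusted p = 0.0236). The SC07 value did not pass without SC01 replicate 2 or SC07 replicate 1 or 2 (adjusted p = 0.0852, 0.0645 and 0.202). SC10 against SC07 gave -0.044 ± 0.048 (adjusted p = 0.47).

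MAPK3 (ENSG00000102882, chromosome 16, 30114105 to 30123506, minus strand), which encodes ERK1, the last kinase of the cascade, was highest in SC10. Its libraries measured 50.4, 55.6 and 56.3 CPM in SC01, 56.0, 53.8 and 60.7 in SC07, and 62.2, 62.7 and 64.1 in SC10. The SC10 libraries lay above all others, and SC01 and SC07 overlapped. MAPK3 gained 0.22 ± 0.054 in SC10 over SC01 (adjusted p = 0.000806, edgeR) and 0.15 ± 0.054 over SC07 (adjusted p = 0.0239). The first did not pass with total counts as the only scaling (0.11, adjusted p = 0.0658), and the second not without SC07 replicate 1 or 2 (adjusted p = 0.0669 and 0.139). SC07 against SC01 gave 0.071 ± 0.054 (adjusted p = 0.264), or -0.036 with total counts.

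ARAF, HRAS and MAPK3 are the 3 genes that passed between SC10 and SC07, and the DNA before their start sites is shown for that reason. The stretches are from RefSeq windows on GRCh38.p14, which matched all 7 genes, and end where an annotated exon or the RefSeq start begins. They run 5′ to 3′ on the gene's strand, and capitals mark GGGCGG (the GC box bound by SP factors), the CCAAT box, the motif CCGGAA (an ETS core) and CACGTG (an E-box of the kind bound by MITF and MYC), on either strand.

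ARAF (chrX:47560955-47561099, plus strand): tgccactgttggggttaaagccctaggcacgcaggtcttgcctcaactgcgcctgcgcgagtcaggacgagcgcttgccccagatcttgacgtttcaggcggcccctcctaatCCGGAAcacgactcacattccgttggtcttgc
HRAS (chr11:535577-535826, minus strand): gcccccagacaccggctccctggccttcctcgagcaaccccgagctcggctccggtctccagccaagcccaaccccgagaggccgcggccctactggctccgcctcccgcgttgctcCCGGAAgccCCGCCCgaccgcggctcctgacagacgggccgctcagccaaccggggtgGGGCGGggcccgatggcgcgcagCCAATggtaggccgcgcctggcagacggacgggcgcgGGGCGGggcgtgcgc
MAPK3 (chr16:30123310-30123470, minus strand): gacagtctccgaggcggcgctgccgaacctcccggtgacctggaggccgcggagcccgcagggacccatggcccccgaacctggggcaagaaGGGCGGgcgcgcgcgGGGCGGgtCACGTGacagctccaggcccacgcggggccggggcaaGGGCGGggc

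The start used by RefSeq lies 1711 bases inside the gene as GENCODE draws it for HRAS and 286 bases inside it for MAPK3, so both of these stretches lie within the annotated gene. Over the whole windows of 300 bases, GGGCGG was in 5 of the 7 genes (45.0% of all 35116 windows), CCAAT in 4 (34.6%), CCGGAA in 3 (17.2%) and CACGTG in 2, MAPK3 and NRAS (7.26%). The E-box CATGTG (11.1% of all windows), the TATA motif TATAAA (11.5%) and the cyclic AMP response motif TGACGTCA (1.85%) were in none of the 7. GGGCGG and its complement CCGCCC occurred 5 times in the window of HRAS, 8 times in that of MAPK3 and 0 times in those of ARAF and BRAF, though the start used for BRAF lies 660 bases inside the gene as GENCODE draws it. The G and C content was 60.3% for ARAF, 78.0% for HRAS and 80.7% for MAPK3, against a median of 58.7%. These matches describe letters only, and no binding was measured.

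Counted by comparison, 3 of the 7 genes were higher and 2 lower in SC07 than in SC01, against 31.5% higher and 30.5% lower of all genes tested (62.0% in either direction). In SC10 against SC01, which uses the same SC01 libraries, 4 were higher and 2 lower, against 33.5% and 32.4% (65.9%). With total counts as the only scaling, which moves the median of all genes from -0.013 to -0.12, that split became 2 higher and 3 lower. The same scaling moved all genes in SC10 against SC01 from 6028 higher and 5836 lower to 5044 and 7094. In SC07 against SC01 it moved all genes from 5675 higher and 5487 lower to 4666 and 6841. There it gave 3 higher and 3 lower of the 7 genes. In SC10 against SC07, 2 were higher and 1 lower, against 24.8% and 23.0% (47.9%). In these comparisons 5, 6 and 3 of the 7 genes had no overlap between clones, against 67.4%, 69.1% and 53.4% of all genes. These shares lie near those of all genes and say nothing particular of the cascade. The sizes were small, with a median absolute log2 change of 0.26, 0.17 and 0.095 over the 7 genes and of 0.39, 0.43 and 0.26 over all genes tested, which include genes of far lower counts.

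**Figure D2:**
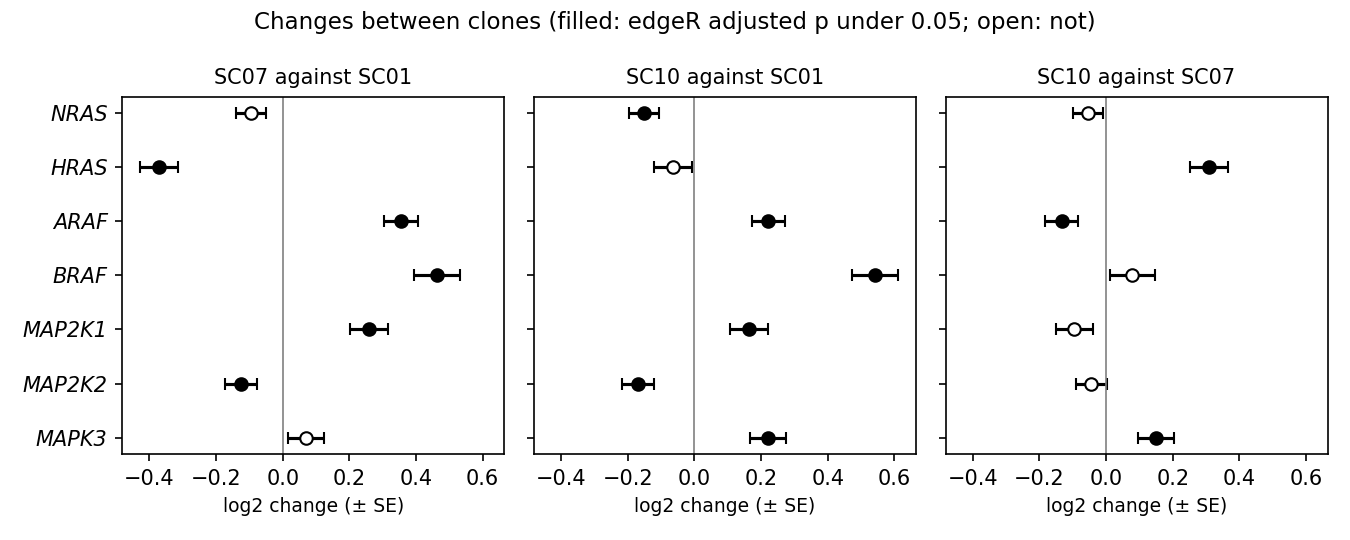
Log2 change with its SE (horizontal axes) of the 7 genes in the 3 comparisons of clones; filled points passed an adjusted p of 0.05 in edgeR and open points did not. BRAF reaches 0.46 and 0.54 over SC01, MAP2K1 and MAP2K2 lie on opposite sides of 0 in both comparisons with SC01, and HRAS is the gene with the widest change between SC10 and SC07 (0.31).

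Per kilobase of exon, the 7 genes covered a wide range. With the union of annotated exons as the length, MAP2K2 stood highest in SC01 at 46.5 ± 1.7 RPKM (mean ± SD, n = 3 here and below). ARAF (20.6 ± 0.67), NRAS (20.4 ± 0.51) and HRAS (20.1 ± 0.85) followed and on this length did not differ beyond their spread between libraries. MAPK3 (14.8 ± 0.88) and MAP2K1 (9.37 ± 0.12) came next, and BRAF was lowest at 1.80 ± 0.13. In SC07 ARAF rose to 26.3 ± 1.0 and stood apart from NRAS (19.1 ± 0.41), while HRAS (15.5 ± 0.50) and MAPK3 (15.5 ± 0.95) were level. In SC10 the order was MAP2K2 (41.3 ± 1.8), ARAF (24.01 ± 1.3), HRAS (19.2 ± 0.72), NRAS (18.4 ± 0.29), MAPK3 (17.2 ± 0.28), MAP2K1 (10.5 ± 0.49) and BRAF (2.62 ± 0.27), with HRAS and NRAS within their spread. These levels depend on the length chosen, since the exons of BRAF add up to 23432 bases while its longest coding transcript has 9578. On the latter length BRAF in SC01 was 4.40 ± 0.32 RPKM, still the lowest, and HRAS (30.2 ± 1.3) and ARAF (29.1 ± 0.95) stood above NRAS (20.4 ± 0.51). MAPK3 then also stood above NRAS in SC10 (24.5 ± 0.39 against 18.4 ± 0.29), unlike the order given above. The SDs do not cover the choice of length.

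The balance of the 2 members of a tier needs no scaling between libraries, and was compared as a ratio of raw counts with an exact permutation test over the 9 libraries, adjusted over the 3 ratios. HRAS per NRAS was 0.410 ± 0.013 in SC01, 0.338 ± 0.0039 in SC07 and 0.435 ± 0.023 in SC10. The SC07 libraries (0.333 to 0.341) lay below all others, and the clones differed (exact permutation p = 0.0107, adjusted p = 0.0214). MAP2K1 per MAP2K2 was 0.145 ± 0.0047 in SC01, 0.189 ± 0.0077 in SC07 and 0.183 ± 0.012 in SC10. Here SC01 (0.140 to 0.149) lay below both other clones (exact permutation p = 0.0143, adjusted p = 0.0214). BRAF per ARAF was 0.580 ± 0.057, 0.626 ± 0.055 and 0.726 ± 0.093, with overlap among all clones (exact permutation p = 0.136, adjusted p = 0.136). Without SC10 replicate 3, at 0.624 the lowest of its clone, the same test gave an adjusted p of 0.0357 (exact permutation). Leaving out any other single library gave adjusted p from 0.118 to 0.311 in that test. The smallest p this design allows is 0.00357.

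**Figure D3:**
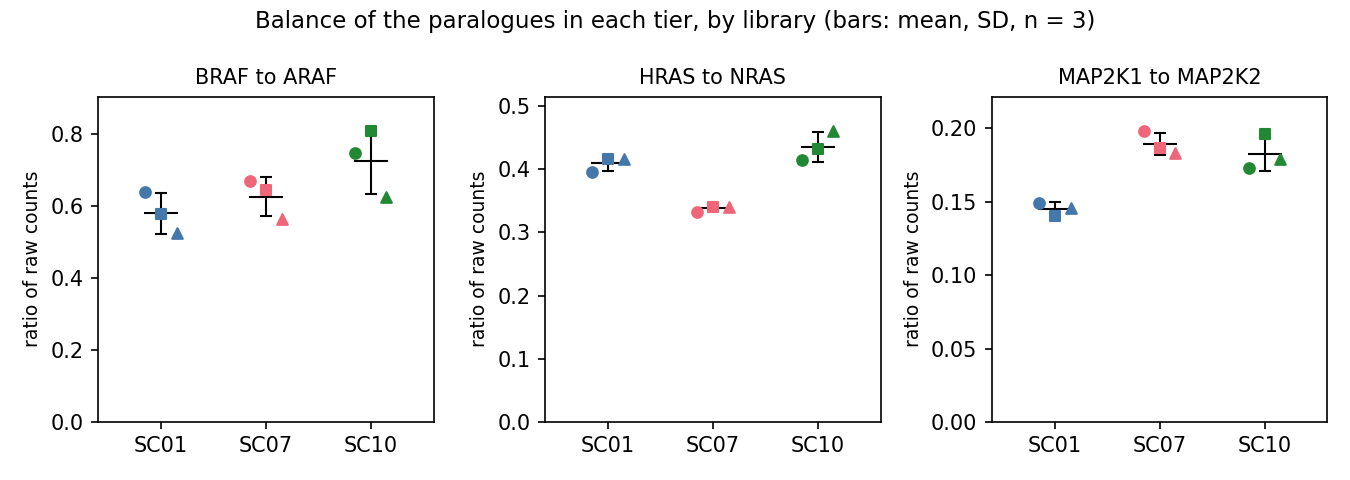
Ratio of raw counts (vertical axes, from 0) of the 2 genes of each tier in the 9 libraries; bars give the mean and SD of 3 libraries. HRAS per NRAS is lowest in SC07 (0.333 to 0.341) and MAP2K1 per MAP2K2 lowest in SC01 (0.140 to 0.149), whereas the BRAF per ARAF ratios of the clones overlap.

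The genes around each locus were set beside it, as a description. Between SC10 and SC07, HRAS lay close to the median of its chromosome. The median of 974 tested genes of chromosome 11 was 0.28 on the log2 scale (546 higher and 60 lower), that of the 102 genes within 5 Mb was 0.18, and HRAS itself was at 0.31. Against SC01 the chromosome 11 median was -0.014 in SC07, where HRAS was at -0.37, and 0.25 in SC10, where HRAS was at -0.064. The 69 genes within 2 Mb lay nearer to HRAS than the chromosome did in both comparisons with SC01, with medians of -0.24 in SC07 (13 higher and 26 lower) and 0.008 in SC10. Their median in SC10 against SC07 was 0.23. BRAF gained 0.46 and 0.54 over SC01, while the 923 other tested genes of chromosome 7 had medians of -0.13 and -0.25 and the 56 within 5 Mb medians of 0.11 and -0.043. For the 34 genes within 2 Mb of BRAF the medians were 0.21 (15 higher and 6 lower) and 0.12 (13 higher and 10 lower), so that the SC10 value changed sign with the window. ARAF and MAPK3 also stood above the medians within 5 Mb in both comparisons with SC01 (-0.15 and -0.13 around ARAF, -0.057 and -0.18 around MAPK3). MAP2K1 did too (-0.037 and -0.044), while NRAS (0.069 and 0.053) and MAP2K2 (0.074 and 0.001) lay below theirs. Within 2 Mb, the SC07 median was 0.39 around NRAS (16 higher and 3 lower). The medians changed sign around MAP2K1 in SC07 (0.084) and around MAP2K2 in SC10 (-0.06), and these genes kept their side of the median. DNA copy number was not measured.

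**Figure D4:**
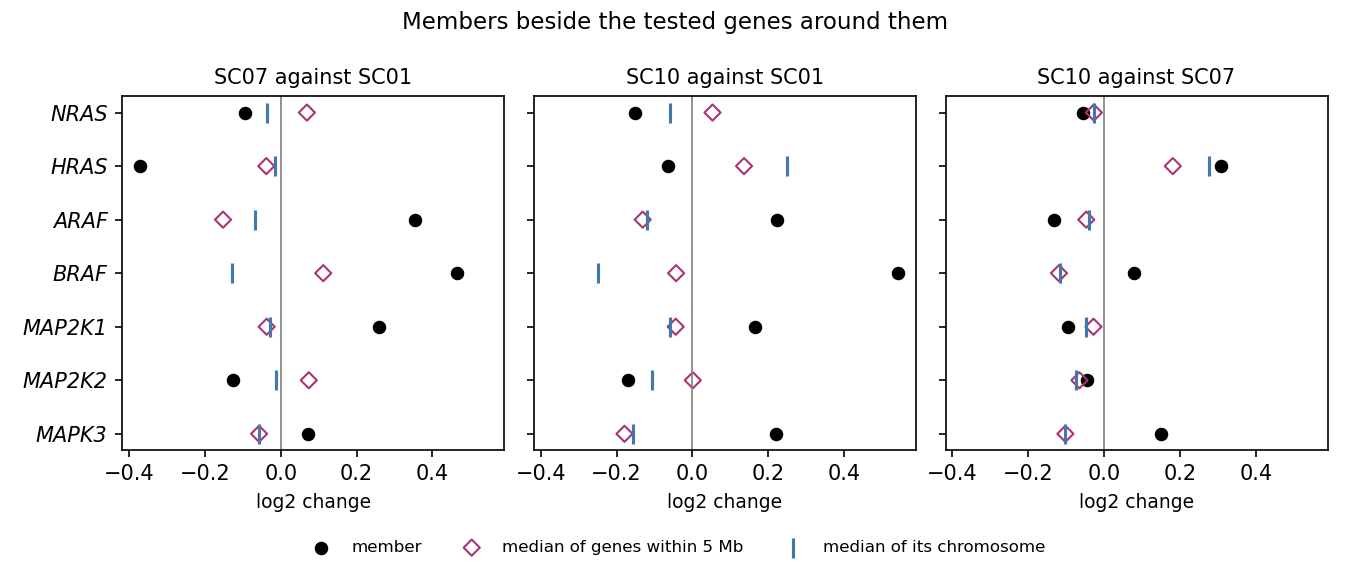
Log2 change (horizontal axes) of each gene (filled circle), the median of tested genes within 5 Mb (open diamond) and the median of its chromosome (vertical tick) in the 3 comparisons. HRAS lies near its chromosome's median between SC10 and SC07 (0.31 and 0.28) and away from it in the comparisons with SC01, where the genes within 2 Mb, not drawn, have medians of -0.24 and 0.008. BRAF lies to the right of both medians in the comparisons with SC01.

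Genes that act on RAS were taken next. Of 16 tested exchange factors and adaptors, 7 were higher and 6 lower in SC07 than in SC01 (6 and 6 with total counts as the only scaling). In SC10, 6 were higher and 8 lower than in SC01 (4 and 8 with total counts), and 4 and 5 against SC07. Of all genes 31.5% were higher and 30.5% lower, 33.5% and 32.4%, and 24.8% and 23.0% in the same order, under TMM scaling. With total counts, all genes had 4666 higher and 6841 lower in SC07, and 5044 and 7094 in SC10, against SC01, here and in the lists below. The list had medians of 0.063, -0.16 and -0.023 on the log2 scale beside -0.010, -0.013 and -0.006 over all genes. RASGRP3, an exchange factor activated by diacylglycerol, was at 7.74 ± 0.046 CPM (mean ± SD, n = 3) in SC01, rose to 36.8 ± 1.4 in SC07 and reached 71.3 ± 2.7 in SC10. Its relative RASGRP2 measured 0.436 ± 0.30, 2.50 ± 0.17 and 7.74 ± 0.79 CPM, and RASGRP1 2.13 ± 0.32, 5.65 ± 0.31 and 1.55 ± 0.27 CPM. All pairs of clones passed for these 3 genes, so that RASGRP3 and RASGRP2 were highest in SC10 and RASGRP1 in SC07.

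Among 8 tested GTPase activating proteins, which switch RAS off, 4 were higher and 4 lower in SC07 than in SC01, 4 and 3 in SC10 against SC01, and 3 and 1 in SC10 against SC07 (62.0%, 65.9% and 47.9% of all genes in either direction). NF1, the neurofibromin gene, rose from 97.3 ± 2.9 CPM in SC01 to 148 ± 2.6 in SC07 and 138.5 ± 24 in SC10. RASAL1 was highest in SC07 (2.69 ± 0.18, 16.7 ± 1.5 and 5.86 ± 0.51 CPM), and RASAL2 lowest there (44.8 ± 4.1, 20.5 ± 0.61 and 32.9 ± 5.3 CPM). Of 9 other GTPases of the RAS subfamily, 3 were higher and 4 lower in SC07 than in SC01, 3 and 1 in SC10 against SC01 (3 and 4 with total counts as the only scaling), and 4 and 3 in SC10 against SC07, beside the same shares of all genes (62.0%, 65.9% and 47.9%). MRAS, a partner of SHOC2 in RAF activation, and RRAS were, like HRAS, lower in SC07 than in either other clone, with 15.8 ± 1.0, 5.77 ± 0.61 and 13.9 ± 0.56 CPM for MRAS and 11.5 ± 0.31, 5.92 ± 0.35 and 11.5 ± 0.47 CPM for RRAS. RRAS2 was higher in SC10 (30.4 ± 0.18 CPM) than in SC01 (20.1 ± 0.34) and SC07 (20.9 ± 0.97).

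The 9 genes of RAS processing and turnover had 4 higher and 3 lower in SC07 than in SC01, 6 and 2 in SC10 against SC01 (4 and 2 with total counts as the only scaling), and 6 and 1 in SC10 against SC07. Of all genes 31.5% were higher and 30.5% lower in the first comparison, 33.5% and 32.4% in the next, and 24.8% and 23.0% in the last, and the medians were 0.088, 0.21 and 0.23 for the list and -0.010, -0.013 and -0.006 for all genes. With total counts the list medians against SC01 were -0.019 in SC07 and 0.10 in SC10, beside -0.117 and -0.124 for all genes. LZTR1, an adaptor for the breakdown of RAS proteins, was highest in SC01 (134 ± 2.4 CPM) and lower in SC07 (64.1 ± 1.8) and SC10 (75.2 ± 1.5). LYPLA1, a depalmitoylating enzyme, rose from 102.5 ± 2.2 to 142 ± 3.9 and 170.0 ± 4.8 CPM, and FNTB, the beta subunit of farnesyltransferase, from 13.95 ± 1.3 to 21.4 ± 1.7 and 16.1 ± 0.81 CPM.

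Of 25 tested RAF regulators and scaffolds, 8 were higher and 8 lower in SC07 than in SC01 (8 and 12 with total counts). In SC10, 10 were higher and 8 lower than in SC01 (7 and 13 with total counts), and 8 and 8 against SC07. The shares of all genes in either direction were 62.0%, 65.9% and 47.9% under TMM scaling. With total counts all genes also shifted downward against SC01, to 4666 higher and 6841 lower in SC07 and 5044 and 7094 in SC10. PEBP1, the RAF kinase inhibitor protein, rose from 386 ± 9.6 CPM in SC01 to 640 ± 18 in SC07 and 455 ± 19 in SC10. PPP1CB, the phosphatase subunit that acts on RAF with SHOC2, followed the same order (160.0 ± 3.7, 285 ± 13 and 210 ± 8.9 CPM), and YWHAH, a 14-3-3 protein, the reverse (147 ± 4.0, 79.4 ± 3.2 and 121 ± 6.1 CPM).

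Downstream, RPS6KA1 and RPS6KA2, which encode RSK kinases that ERK phosphorylates, moved in opposite directions. RPS6KA1 rose from 39.8 ± 2.2 CPM in SC01 to 133 ± 3.9 in SC07 and 127 ± 4.9 in SC10, while RPS6KA2 fell from 21.6 ± 1.0 to 0.581 ± 0.15 and 4.81 ± 0.36 CPM. RPS6KA6 was highest in SC07 (7.42 ± 0.94 CPM, against 2.69 ± 0.22 in SC01 and 2.78 ± 0.34 in SC10). Of the 8 ERK effector kinases, 4 were higher and 3 lower in SC07 than in SC01, 2 and 2 in SC10 against SC01, and 3 and 3 in SC10 against SC07 (62.0%, 65.9% and 47.9% of all genes in either direction). Kinases of the other MAP kinase cascades, of which 15 were tested, had 7 higher and 3 lower in SC07 and 8 and 4 in SC10 against SC01 (5 and 4, and 5 and 6, with total counts), and 5 and 5 in SC10 against SC07, beside 62.0%, 65.9% and 47.9% of all genes. These shares are under TMM scaling, and total counts lowered the number of higher genes over the whole table too (4666 in SC07 and 5044 in SC10 against SC01). MAP2K4, of the JNK cascade, measured 28.2 ± 1.1, 49.4 ± 1.6 and 43.0 ± 1.0 CPM, MAP2K6, of the p38 cascade, 14.3 ± 0.55, 23.6 ± 0.79 and 16.9 ± 0.59, and MAP3K1 44.7 ± 1.9, 23.2 ± 1.7 and 31.3 ± 3.2.

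The 10 ERK target mRNAs of a published activity score had 7 higher and 2 lower members in SC07 than in SC01, 4 and 3 in SC10 against SC01 (3 and 5 with total counts), and 2 and 7 in SC10 against SC07. Of all genes 31.5% were higher and 30.5% lower, 33.5% and 32.4%, and 24.8% and 23.0%. These are shares under TMM scaling, and with total counts 5044 genes were higher and 7094 lower in SC10 against SC01. The medians of the targets were 0.40, 0.007 and -0.31, and those of all genes -0.010, -0.013 and -0.006. DUSP4, an ERK phosphatase, rose from 161 ± 2.6 CPM in SC01 to 315 ± 12 in SC07 and 284 ± 5.2 in SC10, and EPHA4 from 3.66 ± 0.52 to 44.8 ± 1.4 and 26.9 ± 2.0 CPM, while CCND1, encoding cyclin D1, fell from 326 ± 8.4 to 141 ± 2.2 and 208 ± 6.0 CPM. Whether ERK activity differed was not measured.

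The genes whose pattern lay nearest to each member were found by the root mean square difference of centred log2 CPM over the 9 libraries, among 10439 protein-coding genes of at least 5 CPM. NRAS was nearest to PRPF3 (0.015) and DHX9 (0.023), with 1252 genes within 0.1. HRAS lay nearest to CDC45 (0.037) and TRIM3 (0.038), with 327 genes within 0.1, and ARAF to TUFM (0.022) and AMDHD2 (0.026), with 640. BRAF had the fewest close genes, 113 within 0.1, among them FGD4 (0.056). MAP2K1 was nearest to BLCAP (0.036) and CCNI (0.037), MAP2K2 to ZNF581 (0.026) and MCM7 (0.033), and MAPK3 to PPME1 (0.029) and HM13 (0.030), with 785, 966 and 548 genes within 0.1. Nothing is read from these likenesses about function or control.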

How the data were processed

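The values are whole-number read counts per gene as the authors deposited them, for 60675 Ensembl IDs and 9 libraries (3 per clone). HISAT2, featureCounts and GRCh38 are named in the submitters' processing notes. The sources used here give no versions, annotation release, strand setting or handling of multiply matching reads. Names, positions and exon lengths were taken from GENCODE 29 (GRCh38), where 57055 IDs were found, and promoter windows (250 bases before to 50 after a start) from RefSeq on GRCh38.p14.

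Across all genes, filterByExpr kept 18009, and TMM-scaled counts of the 9 libraries were fitted together by the robust quasi-likelihood method of edgeR 4.0.16 (R 4.3.3), using Benjamini-Hochberg adjustment over all genes at 0.05. Standard errors were derived from the log2 change and its F statistic. Ratios of 2 members were tested by exact permutation. Alternatives were other scalings, filters, tools (limma 3.58.1, DESeq2 1.42.0), a test against 1.5-fold, a replicate block and leaving out each library. The same alternatives for the pathway lists, and total counts for the count of members without overlap, were added after seeing the data. Scripts were tested on simulated data.

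The members and gene lists were chosen with earlier results of these data known. Named genes were the 7 members, up to 3 of each pathway list (past the threshold among the clones, at least 5 CPM in the highest clone, largest log2 change in any pair), and the 2 nearest genes of each member, of which 1 is not reported here. No pair of libraries agreed within sampling noise, so all 9 were kept as separate. Same-numbered libraries of different clones did not deviate together.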

Additional observations from a re-analysis of the deposited data

How the results depend on the processing

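Against a minimum change of 1.5-fold, 0 of the 7 genes passed in each comparison of clones, while genes passing over the whole table fell from 11162 to 3703 (SC07 against SC01), 11864 to 4192 (SC10 against SC01) and 8620 to 1444 (SC10 against SC07). Leaving out each library in turn gave 1 to 4 genes passing in SC10 against SC07, where 1 was left without SC07 replicate 1. The spread of clone means of the log2 ratio of BRAF to ARAF ran from 0.239 to 0.424 over the same fits. Of 420 recomputed log2 changes of single genes, 389 kept their side of the threshold, 24 no longer passed and 7 newly passed. The 24 include all of the 5, 6 and 3 changes that passed in the main fit, as lost in the test against 1.5-fold. That test asks a stricter question than the others. None that passed in either fit changed sign. With the length of the longest coding transcript, HRAS lay above NRAS by 0.564 (log2) in SC01 and 0.286 in SC07, where union lengths gave -0.024 and -0.302.

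Same-numbered libraries correlated between -0.020 and 0.043 in their deviations, so the numbers do not pair them. With a replicate block, the numbers of genes passing stayed at 5, 6 and 3 in the 3 comparisons. Permuting within numbers, the BRAF to ARAF ratio (spread 0.32) and the HRAS to NRAS ratio (spread 0.363) each had an adjusted p of 0.0417 (exact permutation). The MAP2K1 to MAP2K2 ratio (spread 0.385) had one of 0.0833. Permuting within numbers allows fewer arrangements than permuting all libraries, so its smallest p is larger than 0.00357.

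Each of the 7 genes had at least 911 counts in every library, and each clone had 3 libraries. Over all genes together, libraries of the same clone differed at a chi-square over its degrees of freedom of 2.56 to 11.6, beyond counting error. For the single genes counting error was not compared with the spread between libraries.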
